A study of Homo sapiens with 21 samples.

Results

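The genes that make and store catecholamines were examined in the human neuroblastoma line SK-N-BE(2), an established cell line, as chromatin sites whose nearest gene was TH, DBH, DDC, PNMT, SLC6A2, SLC18A1, SLC18A2, CHGA, CHGB or GCH1. These 10 genes held 120 of the 367900 sites of the consensus set, namely 33 for DDC, 16 for CHGB, 14 each for CHGA and SLC18A1, 13 for SLC18A2, 12 for SLC6A2, 7 for GCH1, 5 for DBH, 4 for PNMT and 2 for TH. Openness was read out with ATAC-seq: the transposase Tn5 cuts and tags open DNA, so that the reads over a site rise with its openness. Libraries were made 72 h after lentiviral delivery of shRNAs into this single cell line, and the 21 of them fell into 7 groups of 3. The groups were Control, shARID1A.2 and shARID1A.4 (ARID1A silencing), shARID1B.2 and shARID1B.3 (ARID1B silencing), and the combinations shARID1A/B.2.3 and shARID1A/B.4.2, which pair shARID1A.2 with shARID1B.3 and shARID1A.4 with shARID1B.2. Control was the non-silencing control of the study. ARID1A and ARID1B are mutually exclusive subunits of BAF, a complex that remodels chromatin, and the comparison asks how open chromatin differs when either or both are silenced. In bulk ATAC-seq, a site open in fewer cells and a site less open per cell cannot be told apart. An shRNA acts on a transcript, so accessibility holds no check of the silencing itself. The labels do not say whether the 3 libraries of a group came from separate cultures, so the tests below measure the spread between libraries, which may be technical.

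Catecholamine neurons and chromaffin cells hydroxylate tyrosine to L-DOPA with tyrosine hydroxylase (TH), the rate-limiting step, which needs the tetrahydrobiopterin cofactor that GTP cyclohydrolase (GCH1) begins to make. DDC turns L-DOPA into dopamine, DBH turns dopamine into noradrenaline inside the vesicle, and PNMT turns noradrenaline into adrenaline in the adrenal medulla. The vesicular monoamine transporters SLC18A1 and SLC18A2 load the granules, the chromogranins CHGA and CHGB pack them, and the noradrenaline transporter SLC6A2 takes the transmitter back up. Neuroblastomas arise from this sympathoadrenal lineage, and SLC6A2 is the carrier through which they take up the tracer MIBG.

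Libraries held 16140029 to 44472230 reads in sites. The common coefficient of variation between replicates in edgeR, which leaves out counting error, was 0.082, and single sites can vary more. Replicates 1 and 2 of shARID1B.3 and of shARID1A/B.2.3 were the deepest, with 29857760 to 44472230 reads, whereas replicate 3 of those groups held 23104850 and 22030968. The lineage label was checked in Control on the site nearest to the start of each marker gene, as CPM (the reads of a site relative to the scaled read total of its library) per kb of site. Of the sympathoadrenal markers, PHOX2A measured 15.9, HAND2 13.3, TFAP2B 12.2, ISL1 9.02, GATA3 7.56 and INSM1 6.24 CPM per kb. Of the markers of blood, epithelium, endothelium, liver and muscle, EPCAM measured 5.74, MYOD1 3.67, CDH5 3.24, CD3E 2.47, PECAM1 1.74, PTPRC 1.53, KRT8 1.51, CDH1 1.45 and ALB 0.817. These values do not give the full range of either list and do not show that the lists were separate. For ISL1, PTPRC, CD3E, KRT8, PECAM1 and ALB the nearest site lay over 1 kb from the start, and accessibility is not expression.

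Up to 3 closed or opened sites per gene are named below by their p-value, so they were chosen on the outcome, beside the site nearest to the start and the most open site per length. Sequences under 4 of the closed sites and of 3 promoters are given here to show which motif letters these regions hold. The first 4 are the central 300 bases of the closed site with the smallest p-value of SLC18A2, SLC6A2, CHGA and DDC, on the plus strand of GRCh38. They are not the 4 largest changes: sites of SLC18A1, which is not shown, another site of SLC18A2 and a site of CHGB fell by more than those of CHGA and DDC. Capitals mark exact matches, on either strand, to the core letters of 5 factor families, and no marked matches overlap. The AP-1 family (FOS and JUN) was searched as TGANTCA. For GATA factors such as GATA3 the search letters were AGATAA. The cyclic AMP response element, CRE, was written as TGACGTCA. Homeodomain factors such as PHOX2A were represented by TAATTA. For the E-box of bHLH factors such as HAND2 the letters were CATCTG.
SLC18A2, 19615 bases upstream, chr10:117221308-117221607: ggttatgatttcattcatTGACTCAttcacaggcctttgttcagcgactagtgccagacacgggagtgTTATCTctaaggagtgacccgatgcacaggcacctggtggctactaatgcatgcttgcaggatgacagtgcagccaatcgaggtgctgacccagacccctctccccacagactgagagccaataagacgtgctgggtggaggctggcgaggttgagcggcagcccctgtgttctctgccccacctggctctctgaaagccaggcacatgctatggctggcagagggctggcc
SLC6A2, intron 2, chr16:55662297-55662596: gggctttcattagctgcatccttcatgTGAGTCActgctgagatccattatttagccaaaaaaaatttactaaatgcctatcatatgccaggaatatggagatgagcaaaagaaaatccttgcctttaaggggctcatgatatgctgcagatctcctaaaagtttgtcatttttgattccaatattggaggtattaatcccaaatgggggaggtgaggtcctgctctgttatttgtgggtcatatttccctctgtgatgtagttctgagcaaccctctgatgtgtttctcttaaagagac
CHGA, 64725 bases downstream, chr14:92987702-92988001: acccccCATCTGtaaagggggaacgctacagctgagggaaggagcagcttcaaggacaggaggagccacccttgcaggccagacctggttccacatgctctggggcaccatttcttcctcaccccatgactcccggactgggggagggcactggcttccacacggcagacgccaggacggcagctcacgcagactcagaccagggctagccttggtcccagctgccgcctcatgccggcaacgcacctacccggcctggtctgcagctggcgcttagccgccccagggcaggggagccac
DDC, 2517 bases upstream, chr7:50567801-50568100: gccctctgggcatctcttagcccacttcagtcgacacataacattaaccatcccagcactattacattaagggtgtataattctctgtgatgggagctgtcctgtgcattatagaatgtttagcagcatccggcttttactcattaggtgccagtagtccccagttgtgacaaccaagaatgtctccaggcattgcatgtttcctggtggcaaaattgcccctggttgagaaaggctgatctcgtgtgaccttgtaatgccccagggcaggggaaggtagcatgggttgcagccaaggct
The others are the 250 bases before the transcription start in RefSeq (GRCh38.p14), on the plus strand, which is the coding strand of these genes. Of the 10 genes, 4 had a promoter in that table, and DBH, CHGA and SLC18A2 are shown.
DBH, chr9:133636113-133636362: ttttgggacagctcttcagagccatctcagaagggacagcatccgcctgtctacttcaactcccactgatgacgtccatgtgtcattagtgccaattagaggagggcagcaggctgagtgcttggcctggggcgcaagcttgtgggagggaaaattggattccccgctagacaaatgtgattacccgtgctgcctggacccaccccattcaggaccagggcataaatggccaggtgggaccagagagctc
CHGA, chr14:92922900-92923149: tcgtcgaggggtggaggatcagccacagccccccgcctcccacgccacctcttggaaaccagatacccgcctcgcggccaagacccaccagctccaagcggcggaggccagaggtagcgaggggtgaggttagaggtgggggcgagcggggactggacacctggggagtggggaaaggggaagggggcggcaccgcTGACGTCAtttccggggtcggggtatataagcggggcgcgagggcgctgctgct
SLC18A2, chr10:117240864-117241113: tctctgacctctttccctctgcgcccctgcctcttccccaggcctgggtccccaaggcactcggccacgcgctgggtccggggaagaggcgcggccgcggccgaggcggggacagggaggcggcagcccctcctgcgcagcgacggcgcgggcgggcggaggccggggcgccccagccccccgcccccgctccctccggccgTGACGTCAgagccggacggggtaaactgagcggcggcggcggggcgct

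The SLC18A2 window held an AP-1 match and a GATA match (on the minus strand), the SLC6A2 window an AP-1 match and the CHGA window an E-box match. The DDC window and the DBH promoter held none of the 5 motifs. The CHGA and SLC18A2 promoters each held a CRE match, the element bound by CREB-family factors, starting 54 and 48 bases before the start. Of all 35116 RefSeq promoters, 1.65% held the CRE letters in the same 250 bases. Among the central 300 bases of 357028 tested sites, 10.9% held the AP-1 letters, 17.0% GATA, 23.0% E-box, 7.87% homeodomain and 0.223% CRE. Among the 118 tested sites of the 10 genes the shares were 12.7%, 15.3%, 20.3%, 7.63% and 0.847%. A match describes the letters in the window and says nothing of a bound factor.

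Of the 120 sites, 64 lay in introns, 39 between genes, 7 were annotated as promoters, 6 as exons and 4 at transcript ends. Their median distance from the start of the gene was 21678 bases, against 51033.5 bases over all sites, and 9 lay within 1 kb. A site carries the name of the gene with the nearest start, and 44 of the 120 lay in or at the end of another annotated gene. Of the 14 CHGA sites, 11 lay in ITPK1 and of the 16 CHGB sites 5 lay in C20orf196, which GENCODE v44 calls SHLD1. TH, DBH, PNMT, SLC6A2, SLC18A1 and SLC18A2 had an annotated promoter site, and so had DDC. The DDC promoter site was centred 4077 bases inside the gene from the listed start and held 3 other annotated starts in GENCODE v44.

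Openness at the starts spanned a wide range between genes in Control. The site nearest to the start measured 17.7 CPM per kb at SLC6A2, 16.9 at CHGB, 13.0 at GCH1 and 9.07 at CHGA. It measured 4.10 at DBH, 3.49 at SLC18A1, 3.38 at SLC18A2, 2.57 at TH and 2.15 at PNMT. Thus, per length of site, the reuptake carrier and the granule protein CHGB had the most open starts. The rate-limiting enzyme TH and the adrenaline-forming enzyme PNMT had the least. This order depends on the division by length: the PNMT site spans 3347 bases and also covers TCAP, whereas the TH site spans 947 and the SLC18A1 site 606. In CPM the PNMT site held more than that of TH. The most open of all 120 sites per length in Control was SLC6A2, 3751 bases upstream, with 26.6, 24.4 and 25.9 CPM in the 3 Control libraries, or 31.2 CPM per kb. Its log2 change after combined silencing was -0.01 (SE 0.08, FDR 0.97), where FDR is the p-value of the edgeR quasi-likelihood test adjusted over all tested sites by Benjamini-Hochberg. The sign of that value turned in 10 alternatives, all uncalled, and scaling on promoter sites gave -0.24 (FDR 0.0029).

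Combined silencing, the mean of both combinations against Control, closed more of these sites than it opened. At FDR below 0.01, 20 of the 118 tested sites closed, or 16.9%, beside 10.3% of all 357029 tested sites. Only 3 opened, or 2.54%, beside 3.43% of all tested sites. The sites of the 10 genes held more reads, with a median Control CPM of 1.84 against 1.04 over all tested sites. Their median length was 881 bases, against 760 over all sites. A change is more readily called at a site with more reads, and the shares were not matched for reads or length. The 20 closed sites belonged to 7 genes, with 6 at CHGA, 4 at SLC18A1, 3 each at DBH and CHGB, 2 at SLC18A2 and 1 each at DDC and SLC6A2. The opened sites were the start sites of CHGA, CHGB and GCH1. TH and PNMT had no called site. The log2 changes of the closed sites ran from -2.09 to -0.45, with a median of -0.89, and 9 fell by at least 1 on the log2 scale. Over the 118 sites the median log2 change was -0.05, against 0.03 over all tested sites.

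**Figure D1:**
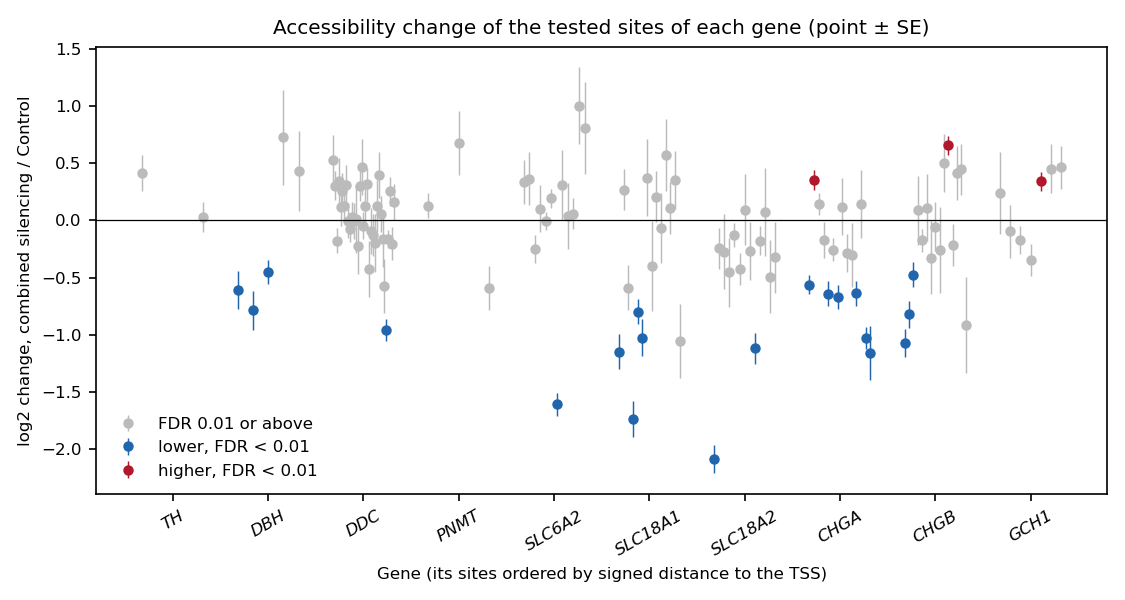
Log2 change after combined silencing against Control (y axis) of each tested site, with its SE, grouped by gene (x axis) and ordered by signed distance to the start within a gene. Blue points are the 20 sites that closed and red points the 3 that opened at FDR below 0.01, and the lowest point is the SLC18A2 site at -2.09.

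Closed and opened sites lay at different distances from the starts, as they did over all genes. Of the 109 tested sites over 1 kb from a start, 19 closed (17.4%, beside 10.6% of all such sites) and 0 opened in the edgeR test (beside 2.00% of all such sites). Of the 9 sites within 1 kb, 1 closed (11.1%) and 3 opened (33.3%). Over all genes 3.72% of sites that near a start closed and 31.8% opened, so the opened share was near that of all genes. The scaling bears on this split. When the library totals were scaled on promoter sites alone, the median log2 change of all sites moved by -0.23, all 20 closed sites remained closed, and of the 3 opened sites the CHGB site remained. With that scaling 33 of the sites closed, beside 15.8% of all tested sites, and 1 opened, beside 0.692%.

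The vesicular transporters, which fill the granules, held the steepest falls. The site 19615 bases upstream of SLC18A2 (chr10:117221072-117221845, 774 bases, between genes) measured 9.48, 8.51 and 7.46 CPM in Control. It measured 1.74, 1.49 and 2.20 CPM with shARID1A/B.2.3, and shARID1A/B.4.2 gave 1.97, 2.30 and 2.46 CPM. All 6 combination libraries lay below all Control libraries, and the fall was -2.09 on the log2 scale (SE 0.12, FDR 7.5e-27), or 4.26 times. This site was the most open of SLC18A2 per length in Control, at 10.96 CPM per kb, against 3.38 at the start site. A second closed site in intron 9 of SLC18A2 (chr10:117256052-117258171) measured 5.004, 5.05 and 4.33 CPM in Control, 2.43, 1.91 and 2.46 CPM with shARID1A/B.2.3, and shARID1A/B.4.2 gave 1.57, 2.44 and 2.55 CPM. It fell by 1.12 on the log2 scale (SE 0.13, FDR 4.2e-11), without overlap of the groups. The SLC18A2 start site, by contrast, measured 8.23, 8.55 and 8.18 CPM in Control, 7.85, 6.48 and 7.39 CPM with shARID1A/B.2.3, and shARID1A/B.4.2 gave 6.94, 8.47 and 8.76 CPM. The first combination lay below Control and the other overlapped with it. Its log2 change was -0.13 (SE 0.10, FDR 0.45), and -0.37 (FDR 0.0025) when scaled on promoters.

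SLC18A1, the isoform typical of chromaffin cells, closed at 4 of 14 sites. Introns are named here as the deposited annotation gives them at the site's centre, and the named intronic sites of SLC18A1 and SLC18A2 also cover a coding exon in GENCODE v44. The largest of these falls was in its intron 4 (chr8:20174087-20175074), where Control measured 4.09, 3.29 and 4.21 CPM. The combinations measured 1.05, 1.09 and 0.703 CPM (shARID1A/B.2.3) and 1.21, 1.43 and 1.44 CPM (shARID1A/B.4.2). All of them lay below Control, a fall of 1.74 on the log2 scale (SE 0.16, FDR 6.7e-16). In intron 10 (chr8:20163423-20165363) Control measured 7.41, 7.56 and 7.06 CPM, shARID1A/B.2.3 3.68, 3.53 and 4.04, and shARID1A/B.4.2 4.66, 3.82 and 5.89. The log2 change there was -0.80 (SE 0.11, FDR 6.2e-09), and another site 23530 bases into the gene also closed, at -1.03 (SE 0.16, FDR 2.5e-07). The site 4098 bases upstream (chr8:20186931-20187546), the most open of the gene per length, measured 4.57, 3.33 and 2.85 CPM in Control, 0.952, 0.953 and 1.10 CPM with shARID1A/B.2.3, and shARID1A/B.4.2 gave 2.78, 2.90 and 2.04 CPM. The second combination overlapped with Control, and the mean fell by 1.15 on the log2 scale (SE 0.15, FDR 1.3e-09). At the SLC18A1 start the change was -0.59 (SE 0.19, FDR 0.021), short of the threshold, and -0.82 (FDR 0.00067) when scaled on promoters.

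The reuptake carrier SLC6A2 lost openness at a single intronic site. In its intron 2, 6193 bases from the start (chr16:55661833-55663062, with no GENCODE exon under it), Control measured 14.4, 12.9 and 14.1 CPM. The combination shARID1A/B.2.3 measured 2.43, 2.00 and 2.90 CPM, and shARID1A/B.4.2 8.83, 8.33 and 8.58 CPM. Both combinations lay below Control and did not overlap with each other, and their mean fell by 1.61 on the log2 scale (SE 0.10, FDR 1.6e-24). The other 11 tested sites of SLC6A2 were not called, and the start site measured 25.6, 21.3 and 24.97 CPM in Control with a log2 change of 0.19 (SE 0.08, FDR 0.096). That start value turned to -0.04 when scaled on promoters.

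Among the enzymes, DBH had 3 of 5 tested sites called closed, at its promoter and upstream of it, and at each of them 1 combination overlapped with Control. The site at its promoter (chr9:133634132-133636651, 2520 bases, reaching over the start) measured 11.4, 8.67 and 10.9 CPM in Control, 6.37, 5.13 and 6.86 CPM with shARID1A/B.2.3, and shARID1A/B.4.2 gave 10.6, 8.70 and 8.95 CPM. The first combination lay below Control, the other overlapped with it, and the mean log2 change was -0.45 (SE 0.10, FDR 0.00051). The site 3343 bases upstream lies over an exon of the non-coding gene ENSG00000261018. The sites 3343 and 8914 bases upstream fell by 0.79 (SE 0.17, FDR 0.00021) and 0.61 (SE 0.17, FDR 0.0038) on the log2 scale. At 3343 bases upstream shARID1A/B.2.3 lay below Control and shARID1A/B.4.2 overlapped with it. At 8914 bases upstream shARID1A/B.4.2 lay below Control and shARID1A/B.2.3 overlapped with it. Control replicate 2 was the lowest Control library at all 3 of these sites, and the promoter call was lost without Control replicate 1 (-0.38, FDR 0.019) or Control replicate 3 (-0.41, FDR 0.011). Without the same libraries the call at 3343 bases upstream was lost too, at -0.59 (FDR 0.028) and -0.68 (FDR 0.012). The site 8914 bases upstream lost its call with DESeq2 (-0.59, FDR 0.029), with the compared groups alone (-0.60, FDR 0.016), and without Control replicate 1 (-0.56) or 3 (-0.46), shARID1A/B.2.3 replicate 2 (-0.43) or shARID1A/B.4.2 replicate 1 (-0.60) or 2 (-0.51).

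DDC, with the most sites, closed at 1 of 33. That site lay 2517 bases upstream of the listed start (chr7:50567506-50568397) and measured 13.6, 13.8 and 12.7 CPM in Control. It measured 5.12, 6.62 and 6.29 CPM with shARID1A/B.2.3, and shARID1A/B.4.2 gave 6.99, 7.92 and 8.53 CPM. The libraries of both combinations lay below Control, a fall of 0.96 on the log2 scale (SE 0.10, FDR 2.7e-14). The promoter inside the gene (chr7:50560185-50562530, holding 3 annotated starts) measured 27.4, 30.1 and 28.5 CPM in Control, and its log2 change was -0.16 (SE 0.08, FDR 0.13), or -0.40 (FDR 2.8e-06) when scaled on promoters.

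The start of TH (chr11:2171534-2172480) measured 2.84, 2.05 and 2.41 CPM in Control, 3.12, 2.30 and 3.78 CPM with shARID1A/B.2.3, and shARID1A/B.4.2 gave 3.27, 3.36 and 3.85 CPM. The first combination overlapped with Control and the other lay above it. The log2 change of 0.41 (SE 0.16, FDR 0.049) missed the threshold, and passed it without shARID1A/B.2.3 replicate 2 (0.54, FDR 0.0035). The start of PNMT, a site that also covers the neighbouring TCAP, measured 7.46, 5.75 and 8.34 CPM in Control and overlapped with both combinations. Its log2 change was 0.13 (SE 0.11, FDR 0.49), and -0.10 when scaled on promoters. The start of GCH1 (chr14:54901629-54903408, over exon 1) measured 25.2, 20.1 and 24.4 CPM in Control, 29.4, 27.1 and 28.2 CPM with shARID1A/B.2.3, and shARID1A/B.4.2 gave 30.02, 29.2 and 32.1 CPM. All combination libraries lay above Control and the site opened by 0.34 on the log2 scale (SE 0.08, FDR 0.00050). Scaled on promoters the value was 0.11 (FDR 0.26), and without Control replicate 2 it was 0.27 (FDR 0.017), so the rise passed the test relative to all sites and not relative to promoters. With shARID1A/B.2.3 by itself the start was not called: of the 7 GCH1 sites, 0 opened and 2 closed in the edgeR test. Over all tested sites that combination opened 2.85% and closed 10.4%.

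The chromogranins opened at their starts and closed at sites away from them. Over all genes, 31.8% of sites within 1 kb of a start also opened. At the CHGB start (chr20:5910934-5912095, over exon 1) Control measured 20.7, 18.9 and 19.4 CPM, shARID1A/B.2.3 28.6, 30.1 and 28.2, and shARID1A/B.4.2 32.5, 31.1 and 35.7. All combination libraries lay above Control, and the site opened by 0.66 on the log2 scale (SE 0.08, FDR 4.0e-10), and by 0.42 (FDR 1.1e-06) when scaled on promoters. The central 300 bases of this site held the CRE letters. At the CHGA start (chr14:92922527-92924590) Control measured 20.1, 16.6 and 19.5 CPM and the combinations 21.9, 20.5 and 23.0, and 24.8, 25.7 and 27.9 CPM. That site opened by 0.35 (SE 0.09, FDR 0.0012), a call lost without Control replicate 2 (0.30, FDR 0.018) and when scaled on promoters (0.12, FDR 0.26). With shARID1A/B.2.3 by itself the CHGA start was not called, as 0 of the 14 CHGA sites opened in the edgeR test, beside 2.85% of all tested sites.

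Away from the starts, CHGA closed at 6 sites, 5 of them in ITPK1. The site 64725 bases downstream, in intron 5 of ITPK1 (chr14:92986186-92989519), measured 19.4, 16.1 and 17.2 CPM in Control, 9.36, 6.67 and 9.23 CPM with shARID1A/B.2.3, and shARID1A/B.4.2 gave 7.93, 8.38 and 10.3 CPM. The groups did not overlap, and the site fell by 1.03 on the log2 scale (SE 0.10, FDR 1.1e-15). The site 5623 bases upstream of CHGA, its most open per length, measured 28.0, 24.3 and 26.7 CPM in Control and fell by 0.56 (SE 0.08, FDR 1.7e-08). The site 36786 bases downstream fell by 0.67 (SE 0.10, FDR 1.7e-07). CHGB closed at 3 sites in C20orf196, of which the site 75082 bases upstream (chr20:5835112-5837381) measured 7.36, 6.21 and 7.30 CPM in Control, 2.79, 2.30 and 2.24 CPM with shARID1A/B.2.3, and shARID1A/B.4.2 gave 4.08, 4.88 and 4.45 CPM. It fell by 1.07 (SE 0.12, FDR 4.6e-12), and the site 66950 bases upstream fell by 0.82 (SE 0.12, FDR 1.1e-08). Which gene these sites act on was not tested.

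**Figure D2:**
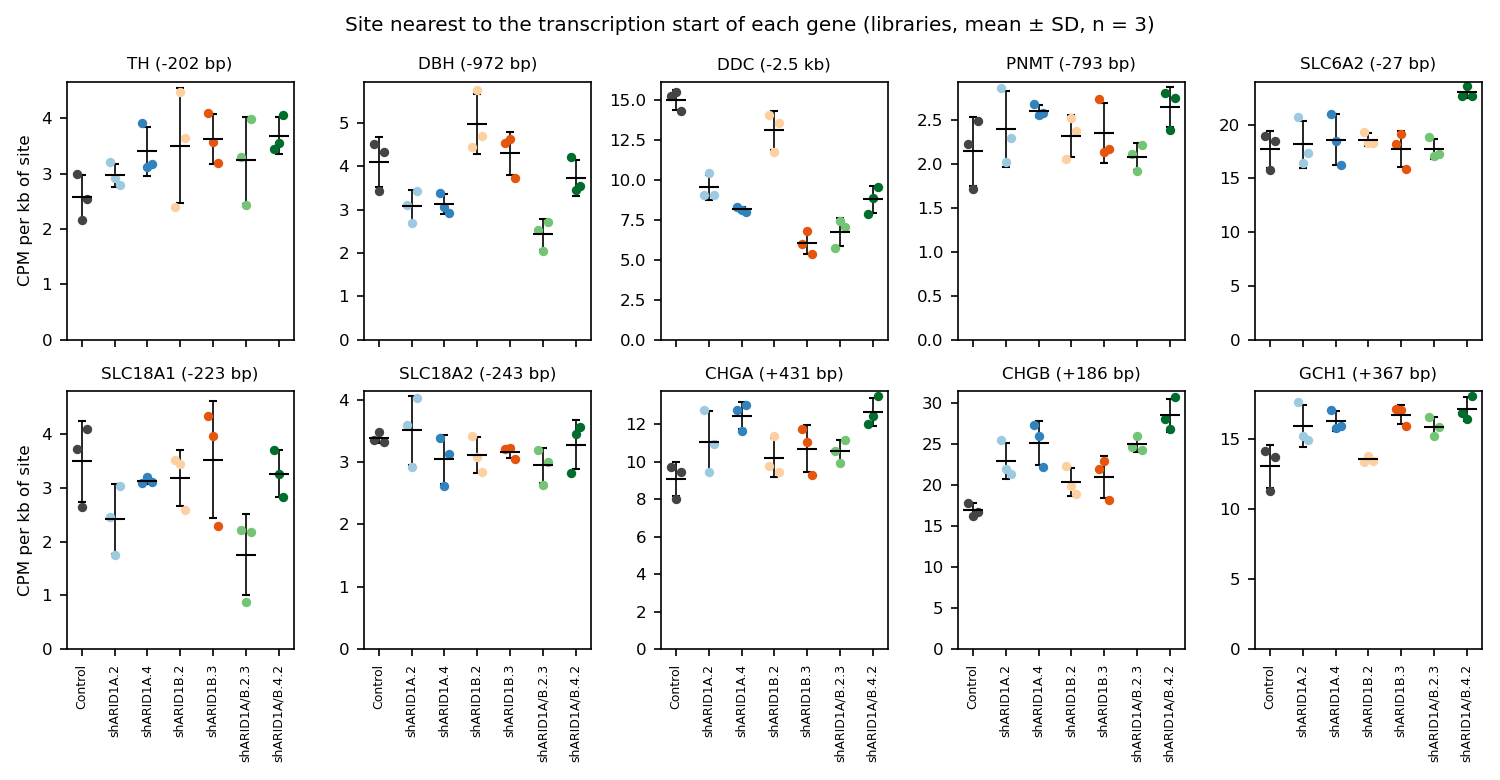
CPM per kb of the site nearest to the transcription start of each gene (y axis, from 0) in the 7 groups (x axis), with 3 libraries as points and the mean ± SD as bars. CHGB rises from 16.9 in Control to 24.9 and 28.5 in the combinations, and TH stays between 2.57 and 3.69. The DDC site falls from 14.99 to 6.74 and 8.76, but it lies 2517 bases upstream and covers no annotated start. The DDC promoter inside the gene, which holds 3 annotated starts, is not drawn.

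**Figure D3:**
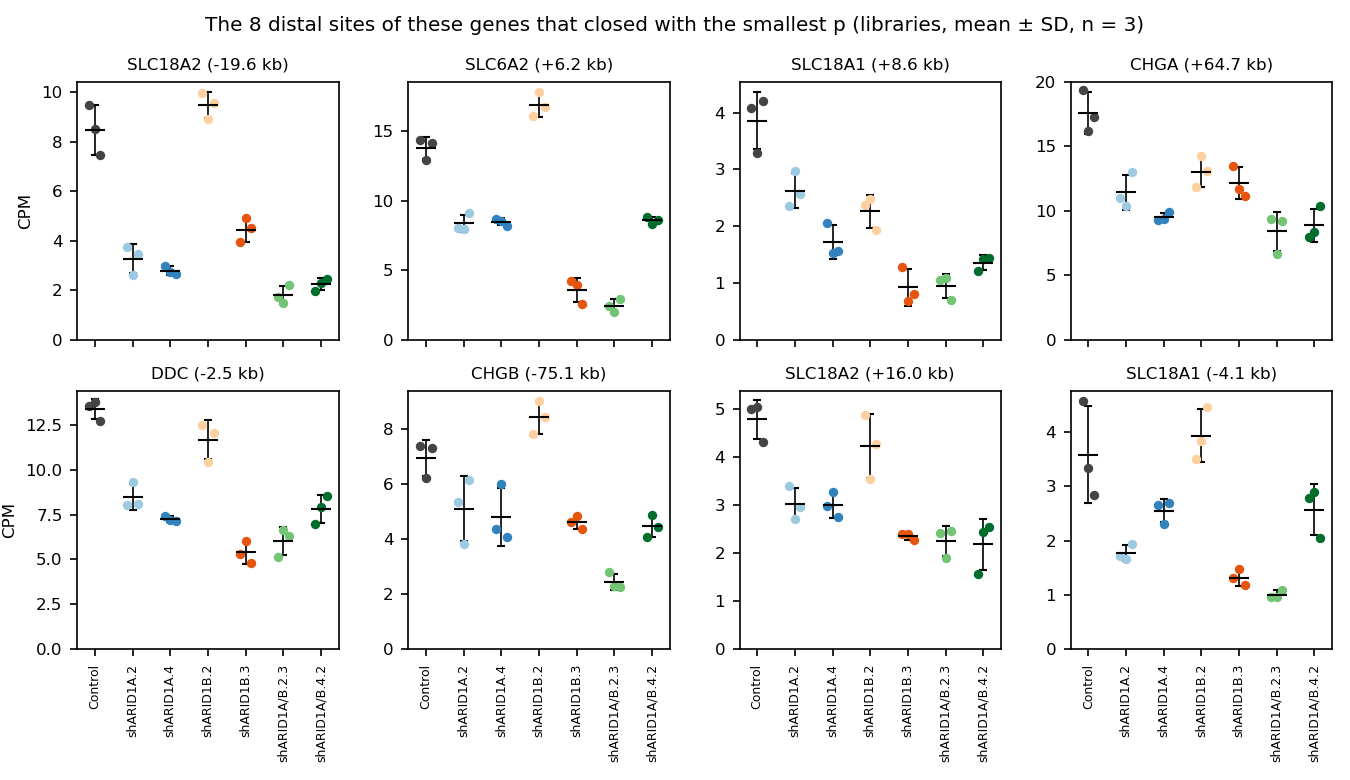
CPM (y axis, from 0) in the 7 groups (x axis) of the 8 sites over 1 kb from a start that closed with the smallest p-value after combined silencing, with 3 libraries as points and the mean ± SD as bars. At the SLC6A2 site 6193 bases into the gene, shARID1B.2 sits at 16.9 and shARID1B.3 at 3.55, with shARID1A/B.4.2 at 8.58 and shARID1A/B.2.3 at 2.44.

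The combinations were next set against Control one at a time, in comparisons that share the Control libraries. With shARID1A/B.2.3, 25 of the 118 sites closed, beside 10.4% of all tested sites, and 2 opened, beside 2.85%. With the replicate number as a block, 25 closed and 4 opened, beside 10.6% and 3.24% of all tested sites. With shARID1A/B.4.2, 15 closed, beside 7.37% of all tested sites, and 7 opened, beside 3.97%. The combinations themselves differed at 17 sites. Of these, 15 were lower with shARID1A/B.2.3, beside 3.79% of all tested sites, and 2 were higher, beside 1.43%. The largest of these differences among the named sites was that of SLC6A2 intron 2, at -1.85 on the log2 scale (SE 0.14, FDR 2.0e-19). DBH also differed, at -0.64 at its promoter (SE 0.13, FDR 8.8e-05) and at -1.36 at the site 3343 bases upstream (SE 0.22, FDR 1.4e-06). The latter site measured 1.08, 0.860 and 0.835 CPM with shARID1A/B.2.3, and shARID1A/B.4.2 gave 2.29, 2.39 and 2.46 CPM, beside 3.32, 1.52 and 2.93 CPM in Control. In the other direction, the site 41049 bases upstream of SLC6A2 (chosen after its values were seen) measured 2.99, 2.90 and 2.95 CPM with shARID1A/B.2.3, and shARID1A/B.4.2 gave 0.896, 0.828 and 0.835 CPM, against 1.35, 0.986 and 1.44 CPM in Control. The difference there was 1.78 on the log2 scale (SE 0.20, FDR 3.2e-11), and shARID1B.3 measured 3.40, 3.10 and 3.70 CPM.

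ARID1A silencing alone closed 19 of the 118 sites, beside 5.37% of all tested sites, and opened 3, beside 1.67%. ARID1B silencing alone closed 7, beside 3.53%, and opened 2, beside 1.39%. These comparisons share Control with each other and with the combinations. ARID1A silencing lowered the SLC18A2 site 19615 bases upstream to 3.76, 2.60 and 3.46 CPM with shARID1A.2 and to 2.98, 2.73 and 2.63 CPM with shARID1A.4, all below Control (log2 change -1.49, SE 0.12, FDR 6.0e-18). With ARID1B silencing the mean log2 change at that site was -0.38 (SE 0.11, FDR 0.012). The change differed between ARID1A and ARID1B silencing by -1.11 (SE 0.10, FDR 1.1e-14). These means join shRNAs that differed there, and the SE leaves out the spread between shRNAs. With shARID1B.2 the change was 0.17 (FDR 0.52), with overlap, while all shARID1B.3 libraries lay below Control. The difference of shARID1B.3 minus shARID1B.2 was -1.09 (SE 0.13, FDR 4.7e-11). All 3 closed DBH sites were also lower with ARID1A silencing (log2 change -1.09, -0.79 and -0.40), while with ARID1B silencing they measured 0.12, 0.15 and 0.18 and were not called. The direct difference passed the threshold at each, with FDR of 1.4e-09, 4.7e-07 and 2.1e-07. At 8914 and 3343 bases upstream of DBH, shARID1B.2 lay above Control (0.41, FDR 0.19, and 0.50, FDR 0.084). At both of these sites shARID1B.3 overlapped with Control. The ARID1B shRNAs differed from each other at 3343 bases upstream (shARID1B.3 minus shARID1B.2, -0.71, FDR 0.0019). Over the 118 sites, 12 were lower with ARID1A than with ARID1B silencing, beside 3.69% of all tested sites, and 1 was higher, beside 1.05%. That site was SLC18A1 intron 4, where ARID1B silencing gave -1.42 (SE 0.16, FDR 7.9e-12) and ARID1A silencing -0.85 (SE 0.15, FDR 1.0e-05).

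The shRNAs against ARID1B differed from each other at many of these sites. With shARID1B.2, 2 of the 118 sites were lower than Control, beside 1.84% of all tested sites, and 3 higher, beside 1.34%. With shARID1B.3, 12 were lower, beside 4.88%, and 7 higher, beside 3.12%. Set against each other, a comparison chosen after seeing the data, 17 sites were lower with shARID1B.3 than with shARID1B.2, beside 4.25% of all tested sites, and 6 were higher, beside 2.96%. SLC6A2 intron 2 measured 16.1, 17.8 and 16.7 CPM with shARID1B.2, above all Control libraries, and 4.19, 3.89 and 2.56 CPM with shARID1B.3, below all of them (difference -2.21, SE 0.12, FDR 4.4e-27). The CHGB site 66950 bases upstream measured 10.7, 10.9 and 9.75 CPM with shARID1B.2 against 3.29, 3.36 and 3.02 CPM with shARID1B.3, and 6.01, 6.37 and 7.38 CPM in Control. Both groups thus left the Control range in opposite directions there (0.66, FDR 7.3e-05, and -1.02, FDR 2.9e-09). SLC18A1 intron 10 went the other way, with 8.19, 8.80 and 8.70 CPM for shARID1B.2 and 12.1, 12.0 and 11.6 CPM for shARID1B.3, both above Control (difference 0.48, SE 0.11, FDR 0.0012). At SLC6A2 intron 2 the combination that holds shARID1B.3 measured 2.44 ± 0.45 CPM and the one that holds shARID1B.2 8.58 ± 0.25 CPM (SD, n = 3). Depth moved with this contrast, since replicates 1 and 2 of shARID1B.3 and shARID1A/B.2.3 were the deepest libraries. Replicate 3 of these groups, at 23104850 and 22030968 reads, measured 2.56 and 2.90 CPM at SLC6A2 intron 2, below all libraries of Control and of shARID1B.2. Whether depth accounts for any of the difference was not tested.

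Fewer sites differed between the shRNAs against ARID1A. With shARID1A.2, 11 sites were lower than Control, beside 4.54% of all tested sites, and 2 higher, beside 0.834%. With shARID1A.4, 14 were lower, beside 4.17%, and 3 higher, beside 2.28%. Compared directly, again a choice made after seeing the data, 2 sites were lower with shARID1A.4, beside 0.737% of all tested sites, and 3 higher, beside 1.84%. The DBH site 8914 bases upstream was lower, with 2.63, 2.60 and 2.02 CPM for shARID1A.2 and 0.778, 0.739 and 0.751 CPM for shARID1A.4. So was the CHGA site 5623 bases upstream, with 23.9, 18.4 and 23.4 CPM for shARID1A.2 and 16.1, 14.5 and 14.7 CPM for shARID1A.4. At both sites shARID1A/B.4.2, which holds shARID1A.4, lay below all Control libraries, with 1.52, 1.15 and 1.72 CPM and 14.8, 16.3 and 16.6 CPM. At the CHGA site shARID1A.2 and shARID1A/B.2.3, which holds it, also lay below all Control libraries. At the DBH site both of those groups overlapped with Control.

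**Figure D4:**
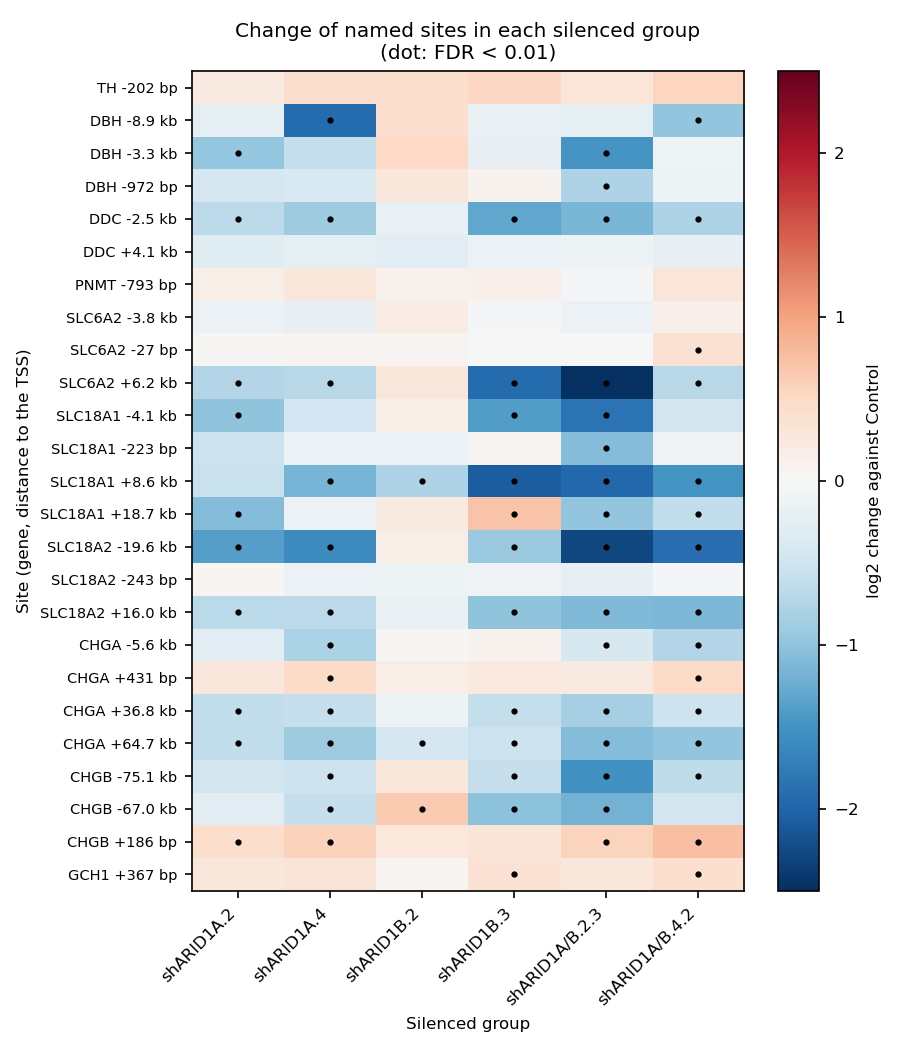
Log2 change against Control (colour, blue lower and red higher) of the 25 named sites (y axis, gene and distance to the start) in the 6 silenced groups (x axis), with a dot where FDR was below 0.01. SLC6A2 +6.2 kb is darkest with shARID1A/B.2.3 (-2.53) and shARID1B.3 (-1.92) and is 0.29 with shARID1B.2.

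The combinations were then compared with the mean of the 4 single-shRNA groups, which asks how silencing both subunits differs from the average of the single silencings and not from each of them. Combined silencing was lower at 17 of the 118 sites, beside 6.85% of all tested sites, and higher at 1, the CHGB start, beside 0.969%. The SLC18A2 site 19615 bases upstream was lower by 1.16 on the log2 scale (SE 0.10, FDR 6.1e-16) and SLC6A2 intron 2 by 0.84 (SE 0.08, FDR 3.8e-14). Against Control, however, SLC6A2 intron 2 fell by 1.92 with shARID1B.3 alone (SE 0.12, FDR 9.5e-24) and by 0.68 with shARID1A/B.4.2 (SE 0.12, FDR 1.7e-06). CHGB was lower by 0.75 at 75082 bases upstream (SE 0.09, FDR 2.6e-10) and higher by 0.26 at its start (SE 0.06, FDR 0.00035). The combined log2 change was also tested against the added changes with ARID1A and with ARID1B silencing, and differed at 1 site in each direction, beside 0.376% of all tested sites below the sum and 0.14% above it. DDC 2517 bases upstream fell by less than the sum (departure 0.55, SE 0.13, FDR 0.0099), and SLC18A1 intron 10 fell although ARID1B silencing raised it (departure -0.65, SE 0.14, FDR 0.0055).

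Reads were also summed over all sites of a gene, giving a single value per gene. Combined silencing lowered 4 of the 10 genes, beside 20.9% of 26743 tested genes, and raised 1, beside 15.9%. SLC18A1 fell by 0.67 on the log2 scale (SE 0.06, FDR 2.7e-09), from 29.4, 26.6 and 25.7 CPM in Control to 15.7, 15.7 and 16.7 CPM with shARID1A/B.2.3, and shARID1A/B.4.2 gave 17.7, 18.5 and 18.5 CPM. SLC18A2 fell by 0.66 (SE 0.06, FDR 1.4e-08), DBH by 0.49 (SE 0.09, FDR 7.8e-05) and CHGA by 0.38 (SE 0.05, FDR 1.3e-06). All combination libraries lay below Control for SLC18A1. The sum of CHGA fell although its start site opened. GCH1 rose by 0.18 (SE 0.04, FDR 0.0018), a call lost without Control replicate 2 (0.15). TH measured 0.14 (FDR 0.26), DDC -0.14 (FDR 0.025), SLC6A2 -0.13 (FDR 0.012), CHGB 0.01 (FDR 0.81) and PNMT 0.00 (FDR 0.98). ARID1A silencing lowered 6 of the 10 genes (DBH, DDC, SLC6A2, SLC18A1, SLC18A2 and CHGA), beside 14.4% of all tested genes, and raised GCH1, beside 7.28%. ARID1B silencing lowered SLC18A2 alone (-0.30, SE 0.06, FDR 0.00094), beside 9.95%, and raised 0 in the edgeR test, beside 5.44%.

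**Figure D5:**
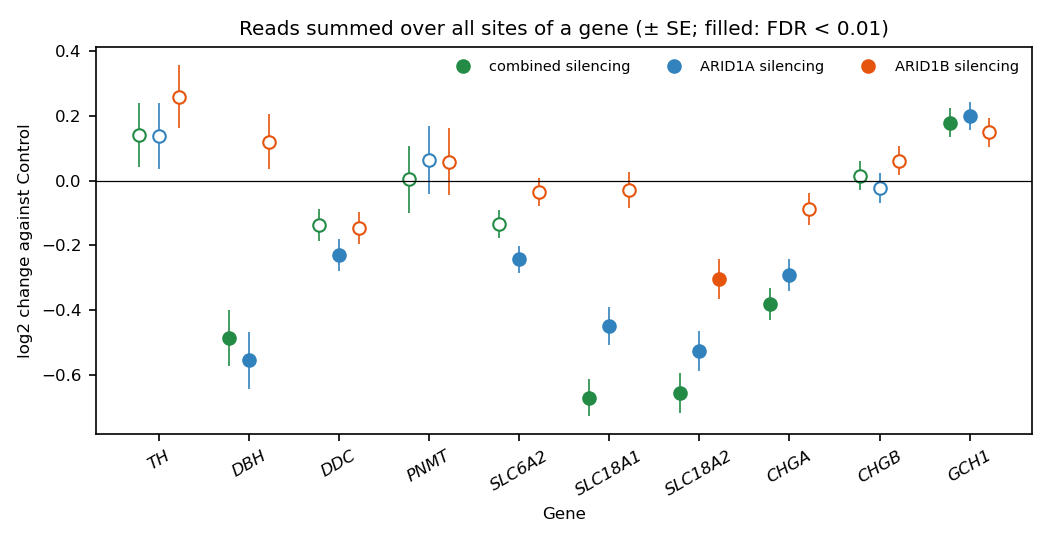
Log2 change against Control (y axis, ± SE) of the reads summed over all sites of each gene (x axis), for combined (green), ARID1A (blue) and ARID1B (orange) silencing. Filled points passed FDR below 0.01, and SLC18A1 and SLC18A2 are lowest after combined silencing, at -0.67 and -0.66.

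Neighbouring steps of the pathway were described from other gene lists, by their counts after combined silencing, beside 10.3% of all tested sites closed and 3.43% opened. Among the genes that make and recycle tetrahydrobiopterin, PCBD1 held 4 closed and 1 opened of 21 tested sites, QDPR 1 in each direction of 4, PTS 1 closed of 7 and SPR 1 opened of 6, whereas neither of the 2 sites of GCHFR was called. Of the monoamine oxidases, which degrade catecholamines, MAOA held 3 in each direction of 12 and MAOB 1 in each direction of 9. Granule and co-stored peptide genes had 449 tested sites over 13 genes, of which 61 closed (13.6%) and 12 opened (2.67%), shares near those of all tested sites. Single genes of this list, chosen after their values were seen, differed in their counts. SYT1, the calcium sensor of vesicle release, held 20 closed and 0 opened of 93 sites in the edgeR test, and NPY, a peptide co-released with noradrenaline, 8 closed of 58. The prohormone convertase PCSK2, by contrast, held 1 closed and 1 opened of 74, CADPS2 0 closed and 1 opened of 37, CPE 0 closed and 1 opened of 7, and VGF 0 closed and 2 opened of 3. The cholinergic genes, the alternative sympathetic transmitter phenotype, had 29 tested sites, of which 8 closed (27.6%) and 0 opened in the edgeR test. CHAT, which makes acetylcholine, held 4 of these closed sites among 5, SLC5A7, which takes up choline, 3 among 17, and SLC18A3, the vesicular acetylcholine transporter, 1 among 6. The median log2 changes of the granule and cholinergic lists were -0.0042 and -0.08, beside 0.03 over all tested sites.

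The promoter sites most like those of DBH and TH over the 21 libraries were sought among 10822 promoter sites of at least 1 CPM. For DBH they were TNS1 (r = 0.923), WNT10A (0.918) and CHRNA9 (0.911), and for TH they were CLIP1 (0.885), GABARAP (0.880) and CCDC43 (0.876). These are Pearson correlations of log2 CPM over libraries that share the group structure, given as descriptions.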

How the data were processed

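ATAC-seq was read from the deposited tables of raw read counts over 367900 consensus sites, 3 libraries in each of 7 groups. Per the labels and file headers, reads were aligned to GRCh38, and the submitters' processing notes name DESeq2. The sources used here do not name the aligner, counter or peak caller. The deposited tables also hold normalized values of the same libraries and the authors' own comparisons (log2 fold changes and p-values), none of which were used. The Control columns were identical in all 15 comparisons of tables. Sites were assigned to the gene named in the deposited annotation.

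The counts were fitted in edgeR 4.0.16 (R 4.3.3) with TMM scaling, which equalises library composition, filterByExpr (minimum count 10) and the quasi-likelihood test, with all 7 groups in 1 model. Of the sites, 357029 were tested and 118 of the 120 sites of the 10 genes passed this filter on low counts. FDR was adjusted over all tested sites by Benjamini-Hochberg and called below 0.01. Combined, ARID1A and ARID1B silencing are each the mean of 2 groups minus Control. Libraries held 16140029 to 44472230 reads in sites, and counting error is part of the fitted spread. The labels give no meaning to the replicate numbers. Deviations of same-numbered libraries from their group means correlated above 0.1 in 8 of 63 pairs, among them all 3 of Control and shARID1A/B.2.3 (0.125, 0.374 and 0.126), so that comparison is also given with a replicate block, fitted over all 7 groups. The procedure was tested on simulated data. Alternatives were DESeq2 1.42.0, no filter, scaling on promoter sites or total counts, a replicate block, the compared groups alone, FDR below 0.05, sites within 100 kb, and leaving out each library.

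Named were, for each gene, the site nearest to the start, the site with the highest CPM per kb over all libraries, and up to 3 called sites with the smallest p-value after combined silencing. The genes and lists were chosen with earlier results of these data known. Some genes of the marker and pathway lists are not reported here. Exact motif letters were searched in the reference, and promoters were taken from RefSeq.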

Additional observations from a re-analysis of the deposited data

Results flagged for a closer look

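At several named sites the change differed between silenced groups by a direct test in the same edgeR model at FDR below 0.01. All values here are differences on the log2 scale, and comparisons with shared Control libraries are not independent.

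Between the combinations (shARID1A/B.2.3 minus shARID1A/B.4.2), DBH differed by -1.36 at 3343 bases upstream and by -0.64 at its promoter. SLC6A2 differed by -1.85 in intron 2 and by -0.37 at its start, SLC18A1 by -1.38 at 4098 bases upstream and by -0.99 at its start, and CHGB by -0.87 at 75082 and by -0.73 at 66950 bases upstream.

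Between ARID1A and ARID1B silencing (ARID1A minus ARID1B), DBH differed by -1.21, -0.93 and -0.58 at 8914 and 3343 bases upstream and at the promoter. SLC18A1 differed by 0.57 in intron 4 and by -1.08 in intron 10, SLC18A2 by -1.11 at 19615 bases upstream and CHGA by -0.60 at 5623 bases upstream.

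Comparisons between shRNAs against the same gene were chosen after seeing the data. For shARID1B.3 minus shARID1B.2, the differences were -0.71 at DBH 3343 bases upstream, -1.10 at DDC 2517 bases upstream and -2.21 at SLC6A2 intron 2. They were -1.55, -1.29 and 0.48 at SLC18A1 4098 bases upstream, intron 4 and intron 10, and -1.09 and -0.85 at SLC18A2 19615 bases upstream and intron 9. They were -0.46 at CHGA 36786 bases downstream, and -0.86 and -1.69 at CHGB 75082 and 66950 bases upstream. For shARID1A.4 minus shARID1A.2, the differences were -1.67 at DBH 8914 bases upstream, 0.93 at SLC18A1 intron 10 and -0.53 at CHGA 5623 bases upstream.

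Against the added single changes, combined silencing was off by 0.55 at DDC 2517 bases upstream and by -0.65 at SLC18A1 intron 10.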

How the results depend on the processing

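Of 530 values of named sites and genes under the alternatives, 488 kept their direction and side of the threshold, 16 lost their call, 11 gained one and 15 turned in sign, none of the last being called. Scaling on promoter sites gave 33 closed and 1 opened sites for combined silencing (15.8% and 0.692% of all tested sites), 1 opened for ARID1A (0.287%), 11 closed and 0 opened for ARID1B (5.96% and 0.508%), and 28 closed and 1 opened for shARID1A/B.4.2 (14.8% and 0.805%). In these data it shifted the median log2 change of all tested sites by -0.23 for combined, -0.20 for ARID1A and -0.15 for ARID1B silencing. For shARID1A/B.4.2 the shift was -0.32. With FDR below 0.05, 5 sites opened for combined, 6 for ARID1B silencing and 6 for shARID1A/B.2.3. The shares of all tested sites at that threshold were not taken, so these counts have no background. DESeq2 gave 1 opened for ARID1B silencing (0.971% of all tested sites). Total counts gave 4 opened for ARID1B silencing (1.66%) and 4 for shARID1A/B.2.3 (4.45%). The cause of these moves was not tested.

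Leaving out single libraries gave 17 to 22 closed and 1 to 5 opened sites for combined silencing (1 without Control replicate 2, 5 without shARID1A/B.2.3 replicate 2). Of all tested sites, 8.36% to 9.55% closed and 2.60% to 4.64% opened in these fits, with 2.60% and 4.64% opened without the same 2 libraries. Leaving out single libraries gave 13 to 21 and 1 to 3 for ARID1A silencing, 5 to 8 and 1 to 3 for ARID1B silencing, 20 to 26 and 2 to 3 for shARID1A/B.2.3, and 12 to 15 and 4 to 8 for shARID1A/B.4.2. Of all tested sites, 3.98% to 4.96% closed and 0.730% to 2.58% opened for ARID1A silencing. For ARID1B silencing the shares were 2.54% to 3.26% and 0.693% to 1.60%. They were 8.10% to 9.61% and 1.88% to 2.95% for shARID1A/B.2.3, and 5.50% to 6.42% and 2.84% to 3.65% for shARID1A/B.4.2. Summed genes ran from 4 to 5 lower and 0 to 1 higher, with 0 higher without Control replicate 2. When the sums took sites within 100 kb alone, 2 of the 10 genes gained a call and 0 lost one.

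Signs turned at PNMT's start (-0.10) and SLC6A2's start (-0.042) when scaled on promoters. At SLC6A2 3751 bases upstream they turned with DESeq2 (0.0038), no filter (0.016) and total counts (0.0019), and ran from -0.012 to 0.042 with single libraries left out. The PNMT sum was -0.0020 within 100 kb and ran from -0.11 to 0.13 with single libraries left out.

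Of the group pairs, Control and shARID1A/B.2.3 alone had all same-numbered libraries correlated above 0.1. With a replicate block, shARID1A/B.2.3 opened 4 sites in place of 2, beside 3.24% in place of 2.85% of all tested sites. Of the values for named sites and genes, the SLC6A2 sum gained a call (-0.14, FDR 0.0069).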
